A study of Homo sapiens with 4 samples.

Results

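The wild-type HAP1 transcriptome was described from the 2 wild-type (WT) libraries of a series of 4, chosen by the product number of the WT line in their column names. All 60662 genes listed in the count table were kept, and 23531 of them had at least 1 count in the WT libraries. HAP1 is an adherent, near-haploid human cell line derived from KBM-7, a chronic myeloid leukaemia line, and both WT libraries came from clone 4, a single purchased clone of wild-type genotype. The cells were grown in IMDM with 10% heat-inactivated fetal calf serum and antibiotics. The series was made to set MATR3 knockout clones of HAP1 against this WT clone, and its title names the cGAS and STING pathway. The knockout libraries were not used here. Total RNA, 50 ng per sample, was turned into PCR-amplified cDNA and read on a MinION of Oxford Nanopore, where a long read covers a single cDNA. Reads of PCR products without molecular identifiers are not independent molecules. The columns give no replicate number, so the WT libraries are called A and B. The column name of A carries the tag FACS and that of B the tag test, and the sources used here do not explain either tag. Nothing says that the libraries came from separate cultures, so their spread may be technical.

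A haploid line carries 1 copy of most genes, which is why HAP1 is widely used for knockouts and genetic screens. KBM-7 and HAP1 carry the BCR::ABL1 fusion, the tyrosine kinase oncogene of chronic myeloid leukaemia. HAP1 arose while reprogramming of KBM-7 cells to pluripotency was attempted, and it grows attached, unlike leukaemia cells in suspension. A baseline profile of such a line gives the genes available to any later experiment: its receptors, its sensors and the pathways that carry no transcripts.

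Library A held 3509906 counts and library B 5303199. Each gene's count was divided by its library's total and scaled to a sum of 1000000 to give CPM, which is not divided by gene length. A gene was called expressed where it reached 1 CPM in both libraries, which took 4 counts in A and 6 in B, and listed at 0 where neither library had a count. With 3 counts as the limit that a count of 0 allows, a gene listed at 0 may still have had up to 0.855 CPM in A, 0.566 CPM in B or 0.340 CPM over both, for counting error only. There is 1 condition, so no test was made. Errors are the SD of the 2 libraries.

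Of the 60662 genes, 11917 were expressed, which is 19.6%, and 37131 were listed at 0, which is 61.2%. Among the 19421 genes annotated as protein-coding, 10204 were expressed, which is 52.5%, and 5853 were listed at 0, which is 30.1%. These shares are the background for every list that follows. Expressed genes had a median of 10.5 CPM, and protein-coding genes as a whole a median of 1.89 CPM. The levels were steeply graded: 5797 expressed genes lay between 1 and 10 CPM, 4793 between 10 and 100, 1169 between 100 and 1000, and 158 above 1000. The 158 genes above 1000 CPM held 47.7% of all counts. ZNF799, with 4 and 5 counts in A and B, fell just under the threshold, and AC002116.2, with 5 and 6 counts, just over it, so calls near 1 CPM rest on a handful of reads.

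Transcripts of the translation machinery led the profile. RPLP1, a protein of the acidic stalk of the large ribosomal subunit, had 75184 counts in A and 109376 in B, a mean of 21022 ± 563 CPM (SD, n = 2), which put it first in both libraries. RPS29 of the small subunit followed with 40460 and 58088 counts, and RPL37A of the large subunit with 39041 and 59867. These neighbours, at 11240 ± 406 and 11206 ± 117 CPM, did not differ beyond their spread. Of the 20 most abundant entries, 18 were named for a ribosomal protein, either the gene or a pseudogene of it. The other 2 were MT-RNR2, the mitochondrial 16S ribosomal RNA gene, at 8841 ± 322 CPM, and AC116533.1, at 9711 ± 450 CPM, an identifier that the annotation used here does not place. The libraries shared 18 of their 20 most abundant genes and 93 of their 100 most abundant. Divided by the length of the longest annotated transcript, the first 20 genes shared 10 members with the first 20 by CPM, and 15 of those 20 were again named for ribosomal proteins.

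**Figure D1:**
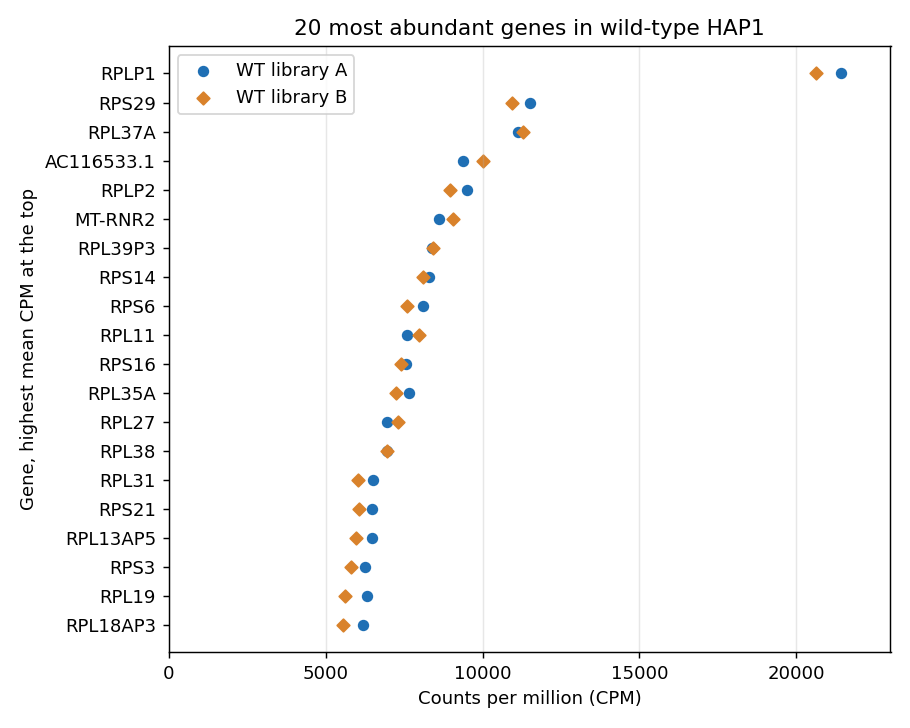
CPM (linear axis from 0) of the 20 genes with the highest mean, 1 row per gene, with a circle for WT library A and a diamond for WT library B. RPLP1 stands at 21420 CPM in A and 20625 in B, far to the right of the other rows, and in most rows the libraries lie close together.

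The 79 cytosolic ribosomal protein genes held 25.1% of the counts in A and 23.8% in B, and 76 of them were expressed, with a median of 1918 CPM. The 3 that were not expressed included RPS18 with 1 and 2 counts and RPS9 with 1 and 1, and for all 3 an alternate contig of hg38 holds a near-identical coding sequence. Other members stood low while a pseudogene of the same family stood high. RPL39 had 257 and 480 counts while its processed pseudogene RPL39P3, an intronless copy, had 29433 and 44709, so that 99.0% of the family's counts stood on pseudogenes. RPL13A had 2081 and 3908 counts against 22754 and 31724 on RPL13AP5. RPS28, with 95 and 203 counts, had 99.4% of its family's counts on pseudogenes. Over the 78 ribosomal protein genes with named pseudogenes, 15.2% of the family counts in A and 16.3% in B stood on the pseudogenes, and for 18 of these genes it was more than 50%. A level given here for a gene with such copies is therefore the count on that locus, not the output of the family.

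Some well-known reference genes also had many of their family's counts on pseudogenes, and others had few. GAPDH, a glycolytic enzyme often used as a loading control, had 197 and 317 counts, a mean of 58.0 ± 2.58 CPM, below TPI1 at 1889 CPM in the same pathway. Its 61 named pseudogenes had 75 counts in A and 815 in B, which is 27.6% and 72.0% of the family's counts. EEF1A1, the factor that brings aminoacyl-tRNA to the ribosome, had 167 and 298 counts, whereas its pseudogenes had 2833 and 4001, nearly all on EEF1A1P5. EIF4A1, the RNA helicase of translation initiation, had 8 and 12 counts against 8 and 179 on its pseudogenes. PPIA, cyclophilin A, had 1880 and 2388 counts against 6439 and 12445. By contrast, pseudogenes held 0.0075% of the family's counts for ACTB, 0.151% for ACTG1, 0.219% for CFL1, 1.31% for PFN1, 1.75% for HNRNPK and 8.25% for TPT1. EEF1G and TUBB were listed at 0: 99.7% of the exonic bases of EEF1G are also exons of another gene, and TUBB, a beta-tubulin, has an alternate-contig copy. How the authors' counting treated reads that match several places or several genes is not stated in the sources used here.

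Such loci were counted over all protein-coding genes. Of 780 genes with an alternate-contig copy, 687 were listed at 0, which is 88.1%, against 27.7% of the genes without one. The next class was taken among genes with no such copy and outside the pseudoautosomal regions. Where at least 50% of a gene's exonic bases overlapped another gene, 503 of 808 genes were listed at 0, and where over 90% did, 231 of 262. Of 18 pseudoautosomal genes, 17 were listed at 0. The 17817 genes with none of these features had 26.1% at 0 and 56.5% expressed. These classes were defined after values had been seen. In the lists that follow, a member with any of the 3 features is called masked, and its 0 is given as such: at such a locus the count does not tell absence of the transcript from reads counted elsewhere.

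Outside the ribosome, the highest protein-coding gene was GSTP1, a glutathione transferase, with 20130 and 29892 counts and a mean of 5686 ± 69.7 CPM. HIST1H4C (now H4C3), a replication-dependent histone H4 gene, followed at 5371 ± 95.7 CPM. This histone mRNA normally ends without a poly(A) tail, and the other 32 members found of that list lay at 205 CPM or below. The linker histones HIST1H1C, HIST1H1D and HIST1H1E were at 205 ± 98.7, 121 ± 72.1 and 120 ± 25.2 CPM, the first pair of them with more counts in the shallower library A than in B. Of the 33 replication-dependent histone genes found, 20 were expressed and 12 were listed at 0, including HIST1H1B and HIST1H2AI. Among nuclear-encoded genes, the next were transcripts of the respiratory chain and ATP synthase, COX7B at 3419 ± 421 CPM and ATP5E at 3103 ± 191 CPM, then the RNA-binding mitochondrial protein SLIRP at 3003 ± 127 CPM.

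The 15 mitochondrially encoded genes for proteins and ribosomal RNAs were all expressed and held 1.94% of counts in A and 2.16% in B. Of the 22 mitochondrial transfer RNA genes, which are outside that list, 4 were expressed and 11 were listed at 0. MT-CO2, a subunit of cytochrome c oxidase, led the messages with 14720 and 20925 counts, 4070 ± 175 CPM, and MT-CYB of complex III followed at 2131 ± 281 CPM. MT-ATP8 was lowest of the 15 at 16.7 CPM, with 60 and 87 counts. Among the glycolytic genes, TPI1, ENO1, LDHA, PKM and PGK1 were highest, from 1889 ± 274 CPM for TPI1 to 817 ± 45.7 for PGK1. Glycolysis had 20 of 24 members expressed, with a median of 26.4 CPM. PKLR, the pyruvate kinase of liver and red cells, was listed at 0 at a masked locus. ALDOA stood at 7 and 11 counts, also at a masked locus.

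Genes of cell division were expressed almost throughout. Of 38 proliferation genes, 36 were expressed, with a median of 90.2 CPM, and none was listed at 0. CKS2, a small subunit of cyclin-dependent kinases, had 3333 and 4720 counts, 920 ± 42.1 CPM. CKS1B was at 700 ± 99.1 CPM, the mitotic cyclin gene CCNB1 at 566 ± 77.6, CDK1 at 406 ± 33.3 and BUB3 of the spindle checkpoint at 336 ± 33.4. CDKN2A, which encodes the p16 and p14 tumour suppressors, had 222 and 749 counts, 63.2 CPM in A and 141 in B, a mean of 102 ± 55.1, so its level is known only loosely. CDKN1A, the p21 inhibitor, was at 3.83 ± 1.79 CPM with 9 and 27 counts. Chaperones were expressed in 29 of 33 cases, led by HSP90AA1 at 2841 ± 95.6 CPM, HSP90AB1 at 1988 ± 212, HSPB1 at 1864 ± 138, HSPD1 at 1535 ± 442 and HSPA8 at 1294 ± 186. The inducible HSPA1A and HSPA1B were listed at 0 at masked loci, and HSPA2 at 0 without such a feature.

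The list of translation initiation and elongation factors had 36 of 39 members expressed and a median of 147 CPM. Its highest members were BTF3, placed in that list though it is not such a factor, at 2138 ± 165 CPM and EIF1 at 1859 ± 113. The cytoskeleton list had 34 of 37 expressed and a median of 77.4 CPM. ACTB led it with 10080 and 16428 counts, 2985 ± 160 CPM, followed by ACTG1 at 2229 ± 98.7 and the actin-sequestering peptide TMSB4X at 1447 ± 58.5. Replacement histones and high-mobility-group genes had 19 of 21 expressed, with HMGB2 highest at 1447 ± 43.8 CPM. HMGA2 and LIN28B, genes that are high in early embryos, stood at 17 and 18.7 CPM.

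**Figure D2:**
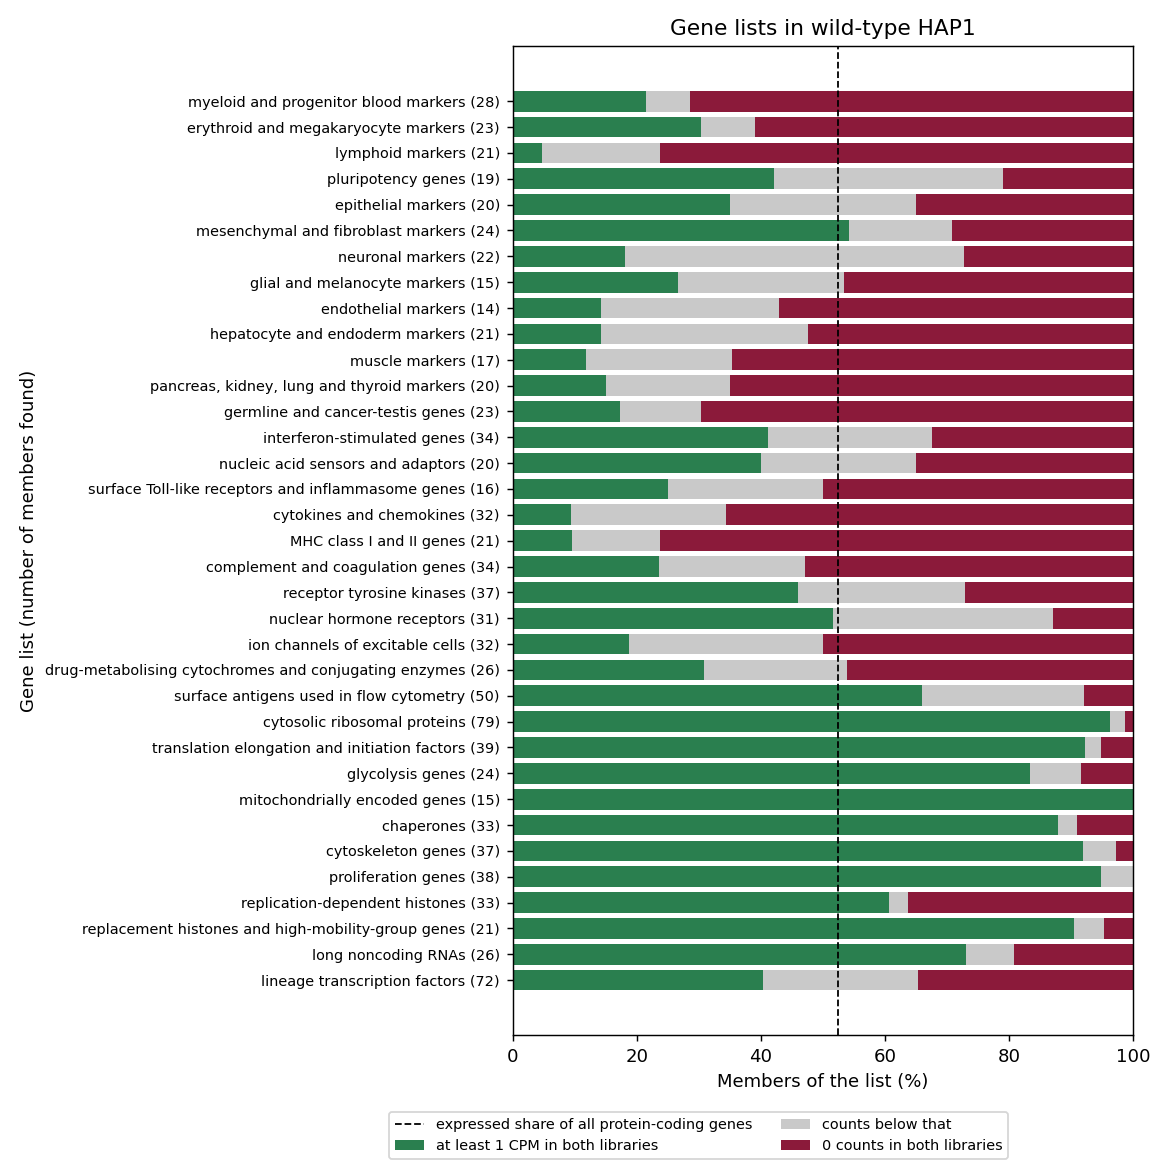
For each of 35 gene lists, the share of members found (x axis, percent) that reached 1 CPM in both WT libraries, had counts below that, or had 0 counts in both. The dashed line marks the 52.5% of all protein-coding genes that were expressed: the cellular machinery lists lie to its right and most lineage and immune lists to its left.

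The labels describe HAP1 as derived from a leukaemia line, and the defining markers of blood cells were checked first. Of 28 myeloid and progenitor markers, 6 were expressed and 20 were listed at 0, 17 of them at loci that are not masked. The median was 0 CPM. PTPRC, the pan-leukocyte phosphatase CD45, was listed at 0, as were SPI1, the myeloid master regulator, CD34 of blood progenitors, CD33 and CD14. Their 0 allows at most 0.340 CPM each over both libraries. The expressed members were mainly transcription factors. GATA2, which maintains blood stem cells and is also active in other tissues, had 45 and 86 counts, 14.5 ± 2.4 CPM. TAL1 had 12 and 22 counts, CORO1A 8 and 16, RUNX1 9 and 14, and MYB 5 and 9, all between 1.56 and 3.78 CPM. KIT, with 1 and 4 counts, did not reach the threshold. In RNA of a whole culture, fewer cells of a type and less RNA per cell cannot be told apart, so these few counts do not say how many cells carried them.

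Red cell and platelet markers gave 7 of 23 expressed and 14 listed at 0, with a median of 0 CPM. GYPC, a membrane glycoprotein that anchors the red cell skeleton and is also made elsewhere, stood far above the rest with 1987 counts in A and 5033 in B, 758 ± 271 CPM. TFRC, the transferrin receptor of all dividing cells, was at 57.6 ± 7.25 CPM. The alpha-globin gene HBA1 had 82 and 125 counts, 23.5 ± 0.147 CPM, and the embryonic globin HBZ 7 and 22 counts, while the beta-type globin genes HBB, HBE1, HBG1 and HBG2 were listed at 0, HBE1 and HBG2 at masked loci. HBA1 and HBA2 encode the same protein, and reads of such a pair can be split between them. EPOR and ITGA2B were at 6.72 and 4.82 CPM. GATA1 and KLF1, the factors that drive red cell genes, were listed at 0, as were AHSP and GP9. Lymphoid markers gave 1 of 21 expressed: CD8A, with 4 and 7 counts, lay just over the threshold, and CD3D, CD3E, CD79A, MS4A1, PAX5 and RAG1 were among 16 listed at 0.

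BCR and ABL1, the partners of the fusion that KBM-7 carries, were looked up by name. BCR had 9 and 15 counts, 2.7 ± 0.187 CPM, and ABL1 3 and 1. Counts per gene do not show whether a read spans the fusion. MATR3, the gene knocked out in the other clones, had 41 counts in A and 43 in B, 9.89 ± 2.53 CPM. Its entry matched no single gene of the annotation used here.

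Pluripotency genes were present in part. SOX2, a factor of the pluripotent and neural stem cell state, had 1114 and 1712 counts, 320 ± 3.84 CPM, with almost the same CPM in both libraries. DPPA4, a chromatin protein of pluripotent and germ cells, had 1079 and 1882 counts, 331 ± 33.6 CPM, which did not differ from SOX2 beyond the spread. MYC followed at 23.2 ± 4.56 CPM and LIN28B at 18.7 ± 7.46. LIN28A had 5 counts in A and 50 in B, so its 5.43 ± 5.66 CPM rests on library B. NANOG, DPPA3, L1TD1 and PRDM14 were listed at 0. POU5F1, which encodes OCT4, had 1 and 0 counts at a locus with an alternate-contig copy, and SALL4 had 2 and 2 counts. The list had 8 of 19 members expressed and 4 listed at 0, with a median of 0.710 CPM, below the 1.89 CPM of protein-coding genes.

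Mesenchymal and fibroblast markers had 13 of 24 members expressed, 54.2%, close to the 52.5% of protein-coding genes. At the threshold of 1 CPM this was the highest share of the 13 lineage lists. CALD1, the actin-binding caldesmon, had 694 and 1409 counts, 232 ± 48.1 CPM. TPM1 was at 108 ± 9.95 CPM, VIM, the intermediate filament vimentin, at 30.1 ± 8.34, the N-cadherin gene CDH2 at 22.9 ± 3.06 and PDGFRA at 20.9 ± 8.59. The fibrillar collagen genes split, with COL1A1 at 11 and 26 counts and COL1A2, COL3A1 and COL5A1 listed at 0, as were DCN, FAP and LUM. ZEB1, which represses epithelial genes, was expressed at 14.1 CPM, and SNAI2 was listed at 0.

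Epithelial markers had 7 of 20 expressed and 7 listed at 0, with a median of 0.166 CPM. The simple-epithelium keratin KRT8 had 38 and 91 counts, 14 ± 4.48 CPM, and its partner KRT18 24 and 23 counts, 5.59 ± 1.77 CPM. MUC1, CLDN3 and SPINT1 lay between 3.93 and 7.14 CPM. The E-cadherin gene CDH1 had 0 and 1 counts against 88 and 110 for the N-cadherin gene CDH2. ELF3, GRHL2, KRT14, KRT19 and KRT5 were listed at 0.

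Fewer members of the other tissue lists were expressed. CRMP1, a semaphorin signalling protein, led the neuronal list at 33.6 ± 10.1 CPM, followed by NES at 14.1 ± 2.2 and SYP at 10.6 ± 0.146, with 4 of 22 expressed. Another 12 neuronal markers had counts below the threshold, and 6 were listed at 0, including STMN2, DCX, NEUROD1 and ELAVL4. That share at 0, 27.3%, is below the 30.1% of protein-coding genes, and at 0.5 CPM 9 of the 22 counted as expressed. EGFL7 led the endothelial list with 130 and 186 counts, 36.1 ± 1.39 CPM, whereas the defining genes CDH5, PECAM1 and VWF were at 0, and 2 of 14 were expressed. TNNT1, the slow skeletal troponin T, was at 40.7 ± 6.75 CPM and MYOM1 at 10.4 ± 2.62, with MYOD1, DES, MYH7, CKM and TTN at 0 and 2 of 17 expressed. Liver and endoderm markers had 3 of 21 expressed, none above the 3.83 CPM of FOXA1, and AFP, APOB, HNF4A, TTR and SOX17 were at 0. Glial and melanocyte markers had 4 of 15, led by OLIG2 at 3.26 CPM with 7 and 24 counts. Pancreas, kidney, lung and thyroid markers had 3 of 20, led by NKX6-1 at 4.87 CPM, with INS, GCG, PDX1, UMOD and SFTPC at 0.

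Germline and cancer-testis genes had 4 of 23 expressed and 16 at 0. AMBN, an enamel matrix protein placed in that list, had 94 and 335 counts, 45.0 ± 25.7 CPM, and ACTL8, a testis actin-like gene, 23 and 138, 16.3 ± 13.8 CPM. Both were over 2-fold higher in library B, so their level is known only loosely. DDX4, DMRT1, GAGE1, MAGEA4 and CTAG1B were listed at 0. Over the 13 lineage lists together, 64 of 267 entries were expressed, 24%, and 140 were at 0, 52.4%. Without the masked entries it was 64 of 251 expressed and 127 at 0, so 13 of the 140 stood at masked loci.

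**Figure D3:**
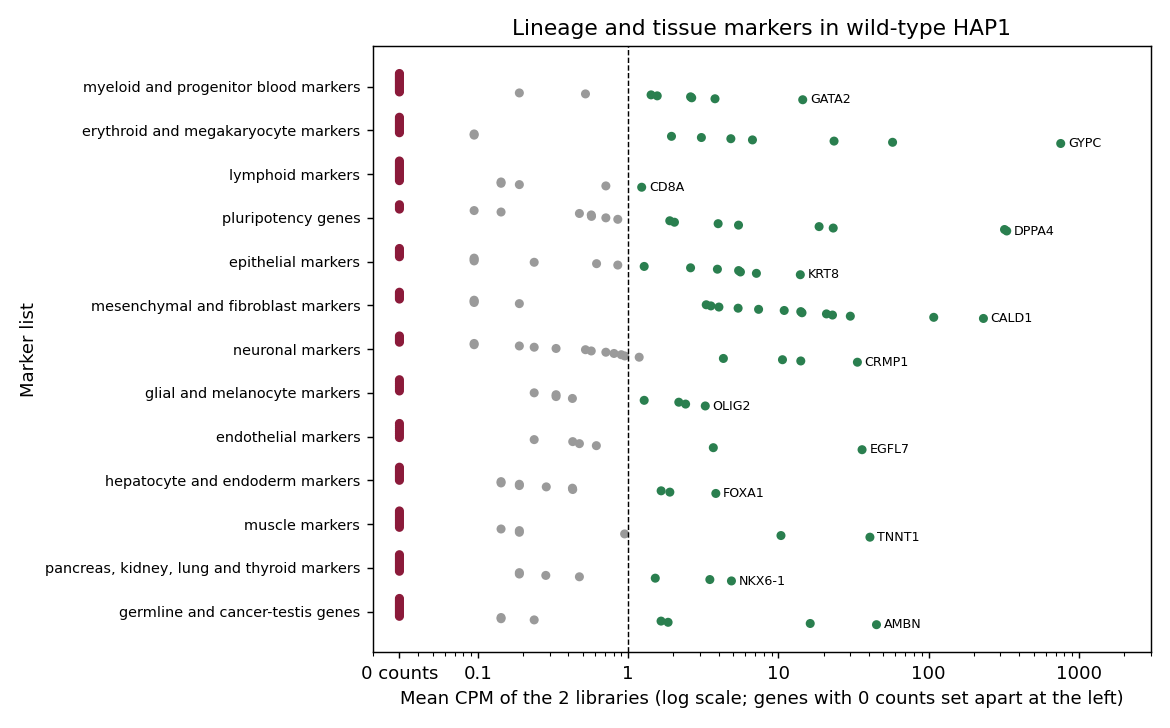
Mean CPM over both WT libraries (log axis) of each marker in 13 lineage lists, 1 point per gene; green points reached 1 CPM in both libraries, grey points had counts below that in at least 1 library, and red points at the left had 0 counts. The highest gene of each list is named; GYPC at 758 CPM, DPPA4 at 331 and CALD1 at 232 stand apart from lists whose points lie mostly at 0 or below 10 CPM.

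Among 72 lineage transcription factors, 29 were expressed and 25 listed at 0, with a median of 0.450 CPM. SOX4, a factor of progenitor cells in many tissues, was highest with 1112 and 1772 counts, 325 ± 12.2 CPM, next to SOX2. MEIS1, a partner of HOX proteins, had 80 and 202 counts, 30.4 ± 10.8 CPM, and the limb and heart factor TBX5 54 and 129. The expressed set mixed programmes, since GATA2, NKX6-1, CDX2 and ISL1 each reached the threshold at under 15 CPM. T, SOX17, SOX9, PAX7 and TP63 were listed at 0. The HOX genes, which were chosen after values had been seen, had 15 of 39 expressed and 8 listed at 0. HOXA9, high in many leukaemias, was highest with 33 and 79 counts, 12.1 ± 3.89 CPM, followed by HOXB13 with 27 and 61 and HOXD13 with 26 and 39. All 4 clusters had expressed members: 6 of 11 in HOXA, 3 of 10 in HOXB, 4 of 9 in HOXC and 2 of 9 in HOXD.

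The title of the series concerns DNA sensing, and the WT baseline of that pathway was measurable only in part. CGAS, the sensor of cytosolic DNA, had 60 and 85 counts, 16.6 ± 0.754 CPM. TMEM173, now STING1, the adaptor that cGAS signals through, had 6 and 4 counts, a mean of 1.23 CPM with library B at 0.754 CPM, and so was not called expressed. TBK1 and IRF3, the kinase and factor downstream, were at 7.75 ± 2.1 and 9.51 ± 1.76 CPM. MAVS, the mitochondrial adaptor of RNA sensing, was highest of the 20 sensors and adaptors with 128 and 283 counts, 44.9 ± 11.9 CPM, then SAMHD1 at 23.7 ± 1.68 and MYD88 at 14.2 ± 3.28. The RNA sensor genes DDX58 (RIGI) and IFIH1 had 6 and 22 and 1 and 0 counts. AIM2, TLR3, TLR7, TLR8 and TLR9 were listed at 0, TLR9 at a masked locus. The list had 8 of 20 expressed and a median of 0.923 CPM.

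Interferon-stimulated genes were expressed in 14 of 34 cases, 41.2%, below the 52.5% of protein-coding genes, with a median of 0.686 CPM. Their share at 0, 32.4%, was near the 30.1% of protein-coding genes. The sample labels name no stimulus. BST2, the antiviral membrane tether tetherin, had 1556 and 2095 counts, 419 ± 34.1 CPM. ISG15, a ubiquitin-like modifier, was at 59.4 ± 8.6 CPM, EIF2AK2, the kinase PKR, at 54.9 ± 5.07, IFI6 at 40.4 ± 7.77 and ADAR at 28.2 ± 3.27. Others of the list had few counts or none: MX1, MX2, OAS1, RSAD2 and CXCL10 were at 0, and IFIT2 and IFIT3 had 2 and 2 and 3 and 5 counts. The 3 IFITM genes in the list lay between 0.331 and 2.46 CPM.

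Of the 32 listed cytokines and chemokines, 3 were expressed. CCL2, a monocyte attractant, had 43 and 71 counts, 12.8 ± 0.804 CPM, VEGFA was at 7.57 ± 1.03 and TGFB1 at 2.93 ± 1.72. The chemokine CXCL14, which is outside that list, was higher with 400 and 290 counts, 84.3 ± 41.9 CPM. IL6, CXCL8, IL10, IL15 and IFNB1 were listed at 0. Surface Toll-like receptors and inflammasome genes had 4 of 16 expressed, led by the kinase IRAK4 at 16.2 CPM, and TLR1, TLR4, TLR5, TLR6 and CASP1 at 0. Complement and coagulation genes had 8 of 34 expressed, and the highest 3 were the regulators that protect a cell from complement, CD55 at 31.1 ± 1.9 CPM, CD46 at 17.6 ± 2.5 and CD59 at 10.7 ± 0.992. C1QA, C1S, C3 and F8 were at 0. Antigen presentation could not be read: 14 of the 21 MHC genes are masked, 13 of those were at 0, and HLA-B had 8 and 9 counts.

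Receptors set which signals the line can receive. Of 37 receptor tyrosine kinase genes, 17 were expressed, with a median of 1.32 CPM. FGFR1 had 143 and 317 counts, 50.3 ± 13.5 CPM, FGFR2 60 and 260, 33.1 ± 22.6 CPM, and PDGFRA 52 and 143. FGFR2 had a log2 ratio of 1.52 between the libraries, so it cannot be ranked against its neighbours. IGF1R and TYRO3 were at 14.7 ± 4.61 and 12.7 ± 0.671 CPM. EGFR was listed at 0 in both libraries at a locus that is not masked, and ERBB2 had 1 and 3 counts. ALK, ROS1, NTRK2, NTRK3 and DDR2 were also at 0.

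Nuclear hormone receptors had 16 of 31 expressed, 51.6%, near the background of 52.5%, with a median of 2.42 CPM. The thyroid hormone receptor gene THRA had 95 and 175 counts, 30.03 ± 4.2 CPM, and the orphan receptor NR2F6 was at 26.6 ± 12.6 CPM. NR3C1, the glucocorticoid receptor, was listed at 0, and the oestrogen receptor ESR1 had 0 and 2 counts. NR1H2 was at 16.8 ± 1.63 CPM and RXRA, with 32 and 113 counts, at 15.2 ± 8.62, and RXRG, NR1I2 and RXRB were at 0, RXRB at a masked locus.

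Surface antigens used in flow cytometry had the highest share of the receptor lists, with 33 of 50 expressed and a median of 4.49 CPM. BSG (basigin) had 1911 and 2899 counts, 546 ± 1.55 CPM, and the tetraspanin CD63 491 ± 24.4. CD70, a ligand normally found on activated lymphocytes, had 513 and 850 counts, 153 ± 9.99 CPM, level with the tetraspanin CD9 at 151 ± 3.97, and SLC3A2 was at 132 ± 8.44. CD44 was near 0 with 2 and 4 counts, NT5E (CD73) and ITGB3 were at 0, and CD99 was at 0 as a pseudoautosomal gene. Ion channels of excitable cells had 6 of 32 expressed, among them SCN9A, a sodium channel of sensory neurons, at 3.54 ± 1.39 CPM and the potassium channel KCNH2 at 2.41 ± 0.59. Drug-metabolising enzymes had 8 of 26. Beside GSTP1, GSTO1 was at 303 ± 9.32 CPM, TPMT at 28.1 ± 0.257 and SULT1A1 at 16.2 ± 5.14, while CYP1A2, CYP2B6, CYP2C19 and CYP2C8 were at 0.

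Whole gene families named by symbol, chosen after values had been seen, gave the emptiest sets. Of 408 olfactory receptor genes, none was expressed and 401 were listed at 0, with at most 5 counts for any of them. None of 94 keratin-associated protein genes, 40 beta-defensin genes, 18 late cornified envelope genes or 13 interferon alpha genes had a count. Of these, 61, 28, 18 and 12 are not masked, and 351 of the 358 olfactory receptor genes that are not masked were at 0. Of 55 keratin genes, 3 were expressed: KRT10 at 94.4 ± 12.7 CPM, KRT8 and KRT18. At the other end, 41 of 48 genes named NDUF were expressed, with a median of 202 CPM. Most of these encode subunits or assembly factors of respiratory complex I. Of genes named PSMA to PSMD, proteasome subunits and some assembly factors, 33 of 40 were expressed, with a median of 120 CPM. Among mitochondrial ribosomal protein genes it was 70 of 78, with a median of 141 CPM. Zinc finger genes named ZNF were mostly expressed at low level, 308 of 512, with a median of 2.48 CPM.

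The long noncoding RNAs that the annotation used here places held 1.44% of counts in A and 1.39% in B, and 479 of 6252 were expressed. Another 19344 entries, 825 of them expressed, are not placed and have no biotype here, so long noncoding RNAs among them are left out. MALAT1, a nuclear RNA of splicing speckles, had 19811 and 25834 counts, 5258 ± 547 CPM, and an antisense gene overlaps it, so the strand of those counts is not known. The next ranks were snoRNA host genes, with SNHG8 at 969 ± 9.05 CPM, SNHG25 at 852 ± 98.6, SNHG19 at 467 ± 41.3, SNHG9 at 418 ± 46.2 and SNHG5 at 353 ± 8.56. Of the 10 highest, 8 were named SNHG or MALAT1, and the others were ENSG00000287238.1 at 273 ± 62.2 CPM and GABPB1-AS1 at 134 ± 11.8. H19, HOTAIR, MEG3, LINC-ROR and MIR22HG were listed at 0. NEAT1, the scaffold RNA of paraspeckles, had 104 and 279 counts.

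The start sites of the expressed and the unexpressed genes differed in base composition. For 19419 of 19421 protein-coding genes a window from 250 bases before to 50 after the start of the canonical transcript was read from hg38. The observed over expected frequency of CpG, the dinucleotide that is depleted where DNA is methylated in the germline, had a median of 0.903 in the 100 most abundant genes, 0.870 in the other expressed genes, 0.714 in genes with counts below the threshold and 0.337 in genes listed at 0. Over all windows it was 0.779. Without the masked genes, the median of those at 0 was 0.316. The letters TATAAA, anywhere in the window on the coding strand, were in 9.0% of the first class, 3.21% of the second and 6.42% of the third. They were in 14.1% of the genes at 0, against 7.08% of all windows. Between 40 and 15 bases before the start, they were in 7.0%, 1.60%, 3.95% and 8.15% of these classes, against 4.01% of all windows. There the 100 most abundant genes and the genes at 0 had similar shares. GGGCGG on either strand, the core of an SP1 site, was in 62.0% of the 100 most abundant genes, near the 61.8% of all windows, in 76.8% of the other expressed genes and in 36.4% of those at 0. CTTCCGG on either strand, the core of an ETS site, was in 31.0% of the top class, 20.5% of the other expressed genes and 5.67% of the genes at 0, against 14.1% of all.

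About as many of the 100 most abundant messages had a run of pyrimidines at the start as had none. Such a 5′ terminal oligopyrimidine run is known from ribosomal protein and translation factor mRNAs, where it couples translation to mTOR signalling. A C followed by at least 5 more C or T within 5 bases before to 12 after the annotated start was found in 51.0% of the 100 most abundant genes and in 12.2% of all windows. It was in 65 of 79 ribosomal protein windows, 82.3%, and in 16 of the 57 windows of the top 100 that are not ribosomal protein genes, 28.1%. The search was added after values had been seen, and a match is a description of letters, not of a working site.

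The starts of 4 ribosomal protein genes are printed to show that run, in capitals, in 80-base stretches from RefSeq on GRCh38.p14, 5′ to 3′ on the gene's strand, with 60 bases before the start and 20 from it on. They are RPLP1 (chr15:69452758-69452837, plus strand), RPL37A (chr2:216498784-216498863, plus), RPLP2 (chr11:809907-809986, plus) and RPS14 (chr5:150449720-150449799, minus).
RPLP1: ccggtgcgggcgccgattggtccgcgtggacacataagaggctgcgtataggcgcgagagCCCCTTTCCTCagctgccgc
RPL37A: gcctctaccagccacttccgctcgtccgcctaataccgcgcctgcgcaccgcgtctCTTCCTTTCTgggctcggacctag
RPLP2: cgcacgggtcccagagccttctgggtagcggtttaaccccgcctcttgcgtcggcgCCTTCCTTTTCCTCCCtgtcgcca
RPS14: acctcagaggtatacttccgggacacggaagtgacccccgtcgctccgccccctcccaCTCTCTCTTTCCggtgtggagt

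The starts of 5 genes with contrasting WT counts are printed the same way, with TATAAA in capitals where it occurs. SOX2 (chr3:181711865-181711944, plus) was expressed at 320 CPM, whereas PTPRC (chr1:198638980-198639059, plus), AFP (chr4:73436161-73436240, plus), EGFR (chr7:55018957-55019036, plus) and NR3C1 (chr5:143403667-143403746, minus) were listed at 0.
SOX2: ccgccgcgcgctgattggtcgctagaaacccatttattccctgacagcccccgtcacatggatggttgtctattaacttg
PTPRC: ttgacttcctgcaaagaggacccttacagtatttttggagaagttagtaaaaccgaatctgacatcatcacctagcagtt
AFP: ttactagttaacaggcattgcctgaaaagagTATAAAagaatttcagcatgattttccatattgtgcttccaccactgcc
EGFR: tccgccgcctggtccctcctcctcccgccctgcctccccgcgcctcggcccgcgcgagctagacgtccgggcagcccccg
NR3C1: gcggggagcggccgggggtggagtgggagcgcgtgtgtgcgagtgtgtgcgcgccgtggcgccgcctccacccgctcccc
The stretches of PTPRC and AFP hold 1 and 0 CG pairs, those of EGFR and NR3C1 12 each, and that of SOX2 6. Genes at 0 therefore included starts of both kinds, and the class medians do not carry over to each gene.

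**Figure D4:**
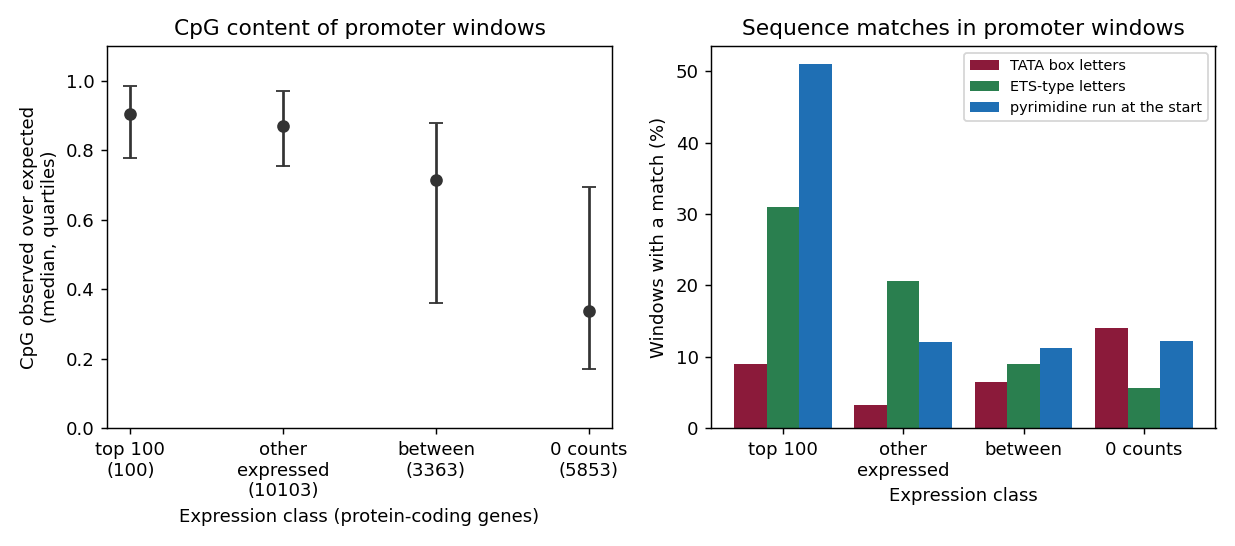
Left, the median and quartiles of CpG observed over expected in promoter windows for 4 expression classes of protein-coding genes, with the number of windows below each class. Right, the percent of windows with TATAAA anywhere in the window, an ETS-type match or a pyrimidine run at the start. The run stands at 51.0% in the top 100 and near 12% in the other classes, and the CpG median falls from 0.903 to 0.337.

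The 2 libraries were close for protein-coding genes with many counts, less close for those with few, and unlike for processed pseudogenes. Over the 8761 genes whose mean reached 20 counts, Spearman's rho across genes was 0.951, with the caveat that genes are not independent replicates, and the median log2 ratio of B over A was 0.086. At least 2-fold higher in B were 455 genes, 5.19%, and at least 2-fold lower 48 genes, 0.548%, together 5.74%. Among 2563 protein-coding genes with a mean of 20 to 50 counts, 7.14% were at least 2-fold higher in B and 1.21% lower. Among the 623 with a mean of 1000 or more it was 0.482% and 0%. The spread was larger than counting alone gives, since the chi-square of the counts was 7.54 per degree of freedom. This value does not tell separate cultures from repeat libraries of the same RNA. The biological coefficient of variation, from edgeR's common dispersion, was 0.183 over all genes, 0.159 for protein-coding genes and 0.659 for processed pseudogenes.

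Processed pseudogenes made up 185 of the 8761 genes and 90 of the 455 that were higher in B, and 48.6% of them passed 2-fold. Their median log2 ratio was 0.97, against 0.074 for protein-coding genes. Where the mean reached 50 counts, the largest ratios belonged to CACYBPP2 with 4 and 103 counts, EIF4A1P10 with 6 and 138, NHP2P1 with 8 and 129, PDIA3P1 with 8 and 117 and TPI1P1 with 36 and 509. GAPDHP1 had 61 and 737 counts while GAPDH had 197 and 317. HSP90AB3P, FAUP1 and HNRNPKP4 were also among the first 10, which held 9 processed pseudogenes and AC131235.1, an unplaced identifier. The parents of these pseudogenes that are given here shifted less than the pseudogenes did. TPI1 had 7311 and 8988 counts, HNRNPK 2677 and 4241, and HSP90AB1 7502 and 9747. FAU, the parent of FAUP1, had 330 and 660 counts, so its share was somewhat higher in B. The parents of CACYBPP2, NHP2P1 and PDIA3P1 are not given here. The abundant pseudogenes RPL39P3 and RPL13AP5 had log2 ratios of 0.01 and -0.12, so the shift was not a property of every pseudogene. Read length, read accuracy and the settings that led to these counts are not in the count table, and their part in the shift was not tested.

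**Figure D5:**
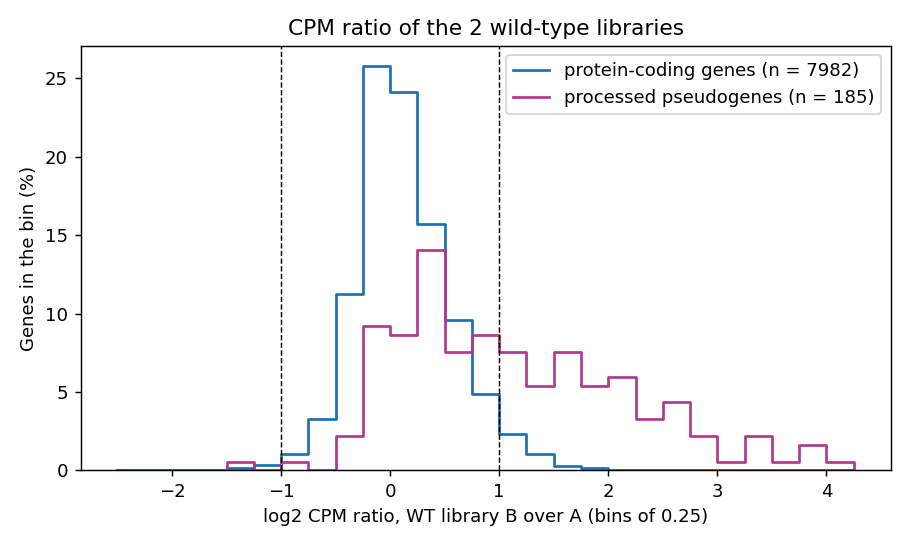
Share of genes (percent, y axis) by the log2 CPM ratio of WT library B over A in bins of 0.25, for 7982 protein-coding genes and 185 processed pseudogenes whose mean reached 20 counts; dashed lines mark 2-fold. The protein-coding curve is centred near 0 and narrow, and 48.6% of the pseudogenes lie at or beyond 2-fold higher in B.

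Protein-coding genes that differed most were chosen by ratio, so their values are a description. The largest ratio in favour of A was that of ANXA1, the phospholipid-binding annexin A1, with 837 counts in A and 470 in B, a log2 ratio of -1.43. RECQL, a DNA helicase, had 70 and 40 counts, the linker histone gene HIST1H1D 605 and 373, POC5 115 and 72, DYM 383 and 243, and APPL1 144 and 98. CXCL14, a chemokine, had 400 and 290, and HIST1H1C 964 and 716. In favour of B, ACTL8 came first with a log2 ratio of 1.99, then MXRA8 with 32 and 160 counts, TMEM18 with 42 and 209, AKAP13 with 18 and 87 and XPO5 with 91 and 403. SPARC, CDA and FGFR2 were among the 10 highest. Gene length moved weakly with the ratio: the median log2 ratio was -0.0032 for protein-coding genes of 500 to 1000 bases and 0.18 for those over 8000 bases, with rho 0.087 across 7982 genes.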

How the data were processed

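The values are raw counts of reads per gene, as deposited by the authors, in whole numbers and without scaling. The submitters' processing notes name hg38, minimap2, SAMtools, Subread, DESeq and DESeq2 1.22.2, and the gene annotation, the counting settings and the use of strand are not given there. The 2 WT columns were read by their names, the 2 knockout columns and 2 further deposited tables were not used, and 0 count columns were left without a matching label. CPM used each library's own total. Symbols were matched to GENCODE 44 on hg38: 35758 rows shared a symbol, 1119 an older symbol and 4441 an identifier, while 19344 rows, with 3.56% of the counts, matched none. Coding sequences of 20046 genes were aligned with minimap2 2.31 to 261 alternate contigs, and a copy was counted at 80% aligned and 98% identity. Exon overlap with other genes, on either strand, came from bedtools 2.31.1, with 50% as the limit for a masked gene. The dispersion was computed in edgeR 4.0.16 (R 4.3.3) and checked on simulated counts. Other values came from Python 3.11.15 with pandas 2.3.3, NumPy 2.4.6 and SciPy 1.17.1.

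The 35 lists, with 1026 entries, and the rules were chosen with earlier results of these data known. The text names the 20 genes with the highest mean CPM, up to 5 of the highest members and up to 5 members at 0 of each list, the 10 highest long noncoding RNAs, and the 10 largest ratios each way among genes whose mean reached 50 counts. Any other gene, the gene families, the masked classes, the pyrimidine run and the pseudogene families were chosen after their values were seen. The alternatives were other CPM thresholds and count minimums, TMM-scaled totals, totals without mitochondrial genes, CPM per kb of the longest transcript and each library alone. Some genes that these rules select are not reported here.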

Additional observations from a re-analysis of the deposited data

How the results depend on the processing

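The ranking of the lineage lists depended on the threshold. At 0.5 CPM, 11 of 19 pluripotency genes and 13 of 24 mesenchymal and fibroblast markers were expressed, so the mesenchymal list no longer had the highest share. The 11917 expressed genes became 7780 at 5 CPM in both libraries and stayed within 1.5 times under 0.5 CPM, TMM-scaled totals, totals without mitochondrial genes, CPM per kb and each library alone, and so did the 37131 genes at 0 under their alternatives. Between the libraries, Spearman's rho was 0.950 at a mean of 50 counts, 0.903 over genes with any count and 0.961 over protein-coding genes, the last chosen after seeing the data. The 455 genes higher in B became 824 at a mean of 10 counts and 177 at a mean of 50, and the 48 lower in B became 118 and 12. Without processed pseudogenes, also chosen after seeing the data, they were 365 and 47. The 100 genes highest by CPM held 40.5% of the counts. The 100 highest by CPM per kb, which shared 68 members with them, held 56.8% of the summed CPM per kb. Unplaced identifiers have no length and were set to 0 in that sum. The gap in median CpG ratio between expressed genes and genes at 0 was 0.534, 0.546 at 5 CPM, and from 0.506 to 0.519 with each library alone. The count of expressed list entries was 516 of 1017, and 504 without masked members. At 5 CPM, 16 of the 35 lists moved by over 1.5 times, and at 0.5 CPM 3 lists did. Cytokines and chemokines had 5 expressed members in library A alone. No paired analysis was possible because only 1 group was used and its columns carry no replicate number. Genes under about 6 counts are beyond what this depth resolves, and 2 libraries of 1 clone give no estimate of the spread between clones or cultures.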

Other observations

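Several identifiers that the annotation used here does not place stood high in both libraries. AC116533.1 had 32967 and 53187 counts in A and B, AC005912.1 12505 and 16919, AC024293.1 9089 and 14185, and AL590867.2 8529 and 14775. All unplaced identifiers together held 3.28% of the counts in A and 3.74% in B, and 56 of the 312 whose mean reached 20 counts were at least 2-fold higher in B, while 0 were lower.

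By chromosome, the share of protein-coding genes that were expressed lay between 40.2% on chromosome 21 and 59.4% on chromosomes 2 and 15. Chromosome 11 had 44.3% of 1291 genes expressed and 41.1% at 0, and X had 45.0% of 846 expressed.

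Library B had a count on 4794 genes on which A had none, and A on 1698 on which B had none. At the total of A, library B would be expected to reach 20171 genes with a count, against 18737 in A.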
